A study of Mus musculus with 6 samples.

Results

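The genes described here mark the oligodendrocyte lineage and the first steps of myelin formation in mouse cortical cells. The list names 30 genes, first those of precursor cells and then those of myelin, and its members were found as rows of the deposited table that carry the same symbol. Of the 30, 28 were present among the 21937 symbols of the table, and Myrf and Sirt2os were absent by symbol. RefSeq lists Gm98 as an older name of Myrf, the factor that switches on myelin genes. The row of Gm98 is given below for itself and is not counted as a member.

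The groups compared were shNat14 (3 libraries), in which cortical progenitors of mouse embryos received a plasmid carrying an shRNA against Nat14 (by its name a member of the N-acetyltransferases), and NTC (3 libraries), which received a control shRNA plasmid. In both groups plasmids were delivered by in utero electroporation at embryonic day 14.5, brains were collected at embryonic day 18.5, and live GFP-positive cells of the dissected cortex were sorted for RNA sequencing. The mouse strain, the promoters on the plasmids and the number of embryos behind each library are not stated in the labels, so the p-values cover the spread among the libraries alone, and that spread may be technical. The deposited file is the authors' own comparison and holds no value per library. Depth per library is therefore unknown, and no value below carries an SD. Fold changes are read as shNat14 relative to NTC because Nat14 itself had a negative log2 fold change, -3.31, in the authors' deposited table (adjusted p = 1.2e-08), which leaves 10.05% of the NTC level.

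Oligodendrocytes wrap axons of the central nervous system in myelin. Their precursors are specified by the basic helix-loop-helix factors Olig1 and Olig2, take up the Sox10 programme, respond to platelet-derived growth factor through the receptor Pdgfra, and later leave the cell cycle to make myelin proteins and galactolipids. In the mouse forebrain the first precursors arise ventrally, the cortex itself adds precursors late in gestation, and most myelin is made after birth. Several members are also made by other cortical cells, among them Tcf7l2, Nfasc and the Olig factors.

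No member passed the authors' test. At adjusted p under 0.05, 0 of 28 members were called in the authors' deposited table, where 0.155% of all genes were called. At unadjusted p under 0.05 the count was 1 of 28 members, Cnp, against 5.04% of all genes, so the members' share of 3.57% was near the background. Cnp was lower in shNat14, and 2.25% of all genes were lower at that threshold. The signs were uneven: a negative fold change was given for 18 members, a positive one for 8 and a value of 0 for 2 in the authors' deposited table. Above the lowest level of the table, 66.7% of the 27 members left were negative, against 47.6% of the 17400 genes left. Their median log2 fold change was -0.23, against 0.00 for those genes. Among the 13 members whose mean level reached the median of the table (1.71 log2 CPM, where CPM is a read count scaled to the total of its library), 8 were negative and 5 positive, and their median was -0.09, against 0.03 for the 10969 genes of that level. In bulk RNA, fewer cells of a type and less RNA per cell cannot be told apart.

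**Figure D1:**
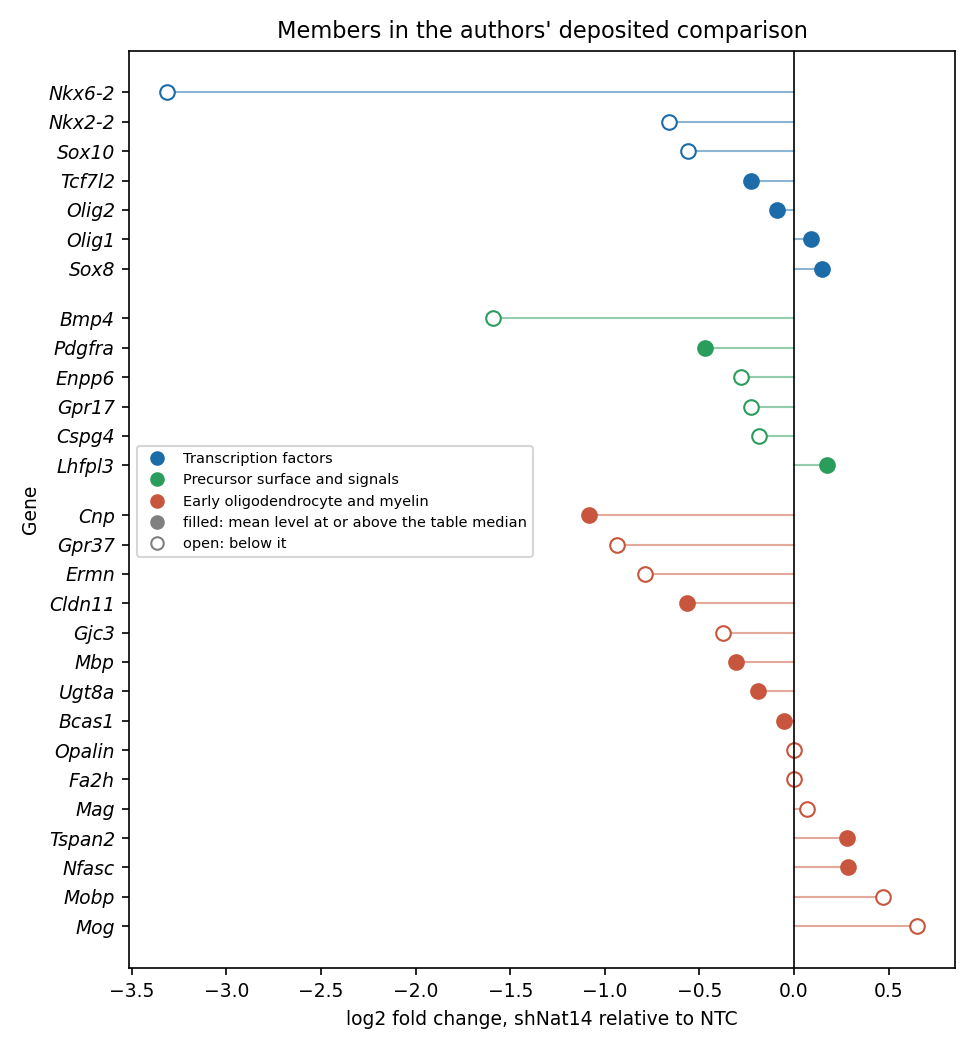
Log2 fold change of shNat14 relative to NTC (horizontal axis) for the 28 members in the table, grouped by role, with filled points for members whose mean level reached the table's median. The values run from -3.31 for Nkx6-2, an open point, to 0.65 for Mog, and the lowest filled point is Cnp at -1.08.

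Upstream sequence is shown for the member with the smallest p, Cnp, for the member with the highest fold change, Mog, and for Sirt2, the lineage gene outside the list with the smallest p. Each run holds the 250 bases before the transcription start in RefSeq's GRCm38.p6 assembly, 5′ to 3′ on the strand of the gene. Capitals mark matches on either strand to CANNTG (an E-box, the class of site bound by Olig factors), ACAAAG (a core of the class bound by Sox factors) and GGGCGG (a GC box), none of which overlapped another here. Cnp lies at chr11:100574689-100574938 (+ strand), Sirt2 at chr7:28766502-28766751 (+ strand) and Mog at chr17:37023399-37023648 (- strand).
Cnp: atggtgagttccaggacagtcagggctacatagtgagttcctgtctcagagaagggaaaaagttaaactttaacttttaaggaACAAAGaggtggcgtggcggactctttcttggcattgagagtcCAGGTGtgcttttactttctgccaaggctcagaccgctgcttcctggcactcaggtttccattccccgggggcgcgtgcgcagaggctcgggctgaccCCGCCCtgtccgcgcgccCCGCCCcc
Sirt2: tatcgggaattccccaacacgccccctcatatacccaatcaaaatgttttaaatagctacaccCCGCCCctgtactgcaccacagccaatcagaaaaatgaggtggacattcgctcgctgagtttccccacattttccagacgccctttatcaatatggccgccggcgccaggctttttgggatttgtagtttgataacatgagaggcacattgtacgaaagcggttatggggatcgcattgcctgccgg
Mog: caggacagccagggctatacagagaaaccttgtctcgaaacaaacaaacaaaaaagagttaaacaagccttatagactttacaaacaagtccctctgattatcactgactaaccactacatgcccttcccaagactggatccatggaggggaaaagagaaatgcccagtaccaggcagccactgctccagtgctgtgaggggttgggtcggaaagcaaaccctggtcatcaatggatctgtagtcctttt
The Cnp window held 1 E-box, 1 ACAAAG and 2 GC boxes. The Sirt2 window held 1 GC box and neither of the other motifs, and the Mog window held none of these letters. Over all 32851 windows of this length in the RefSeq table, 66.2% held CANNTG, 16.5% held ACAAAG and 32.7% held GGGCGG. Of 22 members with a window in that table, 14 held CANNTG, 6 held ACAAAG and 11 held GGGCGG in at least 1 window. These 22 members had 27 windows, and a gene with several windows has more chances to hold a match. The member counts are per gene and the shares over all windows are per window, so they are not on the same footing. A match describes the letters only.

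The 4 transcription factors that reached the median level had fold changes close to 0. Olig1, which with Olig2 specifies the lineage, stood at a log2 fold change of 0.09 (p = 0.869) and Olig2 at -0.09 (p = 0.863) in the authors' deposited table. Computed from the mean level and the fold change of that table, the group levels of Olig1 were 74.9 CPM in shNat14 and 70.4 CPM in NTC. Those of Olig2 were 9.49 CPM in shNat14 and 10.1 CPM in NTC. Sox8, a partner of Sox10, stood at 0.15 (p = 0.797) and Tcf7l2, a Wnt effector that acts when precursors differentiate, at -0.23 (p = 0.599) in the authors' deposited table. These 4 factors lay within 0.23 of 0 in either direction.

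The other factors lay below the median level, where fold changes scatter widely. In the authors' deposited table Sox10, which drives precursor and myelin genes alike, stood at -0.56 with a mean of 0.77 log2 CPM (p = 0.514). Nkx2-2, a homeodomain factor of differentiating precursors, stood at -0.66 (p = 0.663) and Nkx6-2, a homeodomain factor of mature oligodendrocytes, at -3.31 (p = 0.331) in the authors' deposited table. Nkx6-2 had a mean of only -2.80 log2 CPM, near the lowest value of the table (-3.09), and the size of a fitted fold change at such a level is no bound. Gm98, the older name of Myrf, was at a like level, a mean of -2.79 log2 CPM, and had -3.35 in the authors' deposited table (p = 0.376).

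Among genes of the precursor surface and its signals, 5 of 6 had a negative fold change, where 47.6% of all genes above the lowest level were negative. Only 2 of the 6 reached the median level, Pdgfra with a negative and Lhfpl3 with a positive fold change. For Pdgfra, the receptor that keeps precursors dividing, it was -0.47 in the authors' deposited table (p = 0.183), and its computed group levels were 27.8 CPM in shNat14 and 38.5 CPM in NTC. Lhfpl3, a tetraspan protein enriched in precursors, was on the other side of 0 in the authors' deposited table, at 0.18 (p = 0.695). Its computed levels were 29.9 CPM in shNat14 and 26.4 CPM in NTC. Cspg4, the NG2 proteoglycan used as a marker of precursors, stood at -0.18 (p = 0.778) and Gpr17, a receptor of precursors committed to differentiate, at -0.23 (p = 0.794) in the authors' deposited table. Bmp4, a signal of the bone morphogenetic protein family that committed precursors make, had the second smallest p among the members, and in the authors' deposited table it stood at -1.59 with a mean of -0.34 log2 CPM (p = 0.0737). Enpp6, a choline phosphodiesterase of newly formed oligodendrocytes, was at a mean of only -1.89 log2 CPM, and its fold change was -0.28 in the authors' deposited table (p = 0.947).

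Of the early oligodendrocyte and myelin genes, Cnp had the smallest p. It encodes 2',3'-cyclic nucleotide 3'-phosphodiesterase, an enzyme of non-compact myelin that appears early in the lineage. Its log2 fold change was -1.08 in the authors' deposited table (p = 0.0191, adjusted p = 0.801), which is 47.2% of the NTC level. The computed group levels were 14.6 CPM in shNat14 and 31.0 CPM in NTC. By unadjusted p it ranked 522nd in the table. In the GENCODE M21 annotation 154 of the 3639 exonic bases of Cnp overlap exons of Dnajc7, a co-chaperone gene on the opposite strand, and no source used here says whether counting used strand. Dnajc7 itself stood at 0.06 at a much higher count level, a mean of 8.07 log2 CPM, in the authors' deposited table (p = 0.821). The part of such reads in the value of Cnp was not tested. Exons of Nkx6-2, Gpr17 and Lhfpl3 also overlap exons of opposite-strand genes. In mean log2 CPM, Inpp5a was at 1.77 beside Nkx6-2 at -2.80, and Lims2 at 0.20 beside Gpr17 at 1.54. A930003O13Rik was at -1.35, far below Lhfpl3 at 4.81. The part of such reads in the values of these 3 members was not tested. The opposite-strand partners of Bmp4 and Ermn sat at the lowest level of the table.

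**Figure D2:**
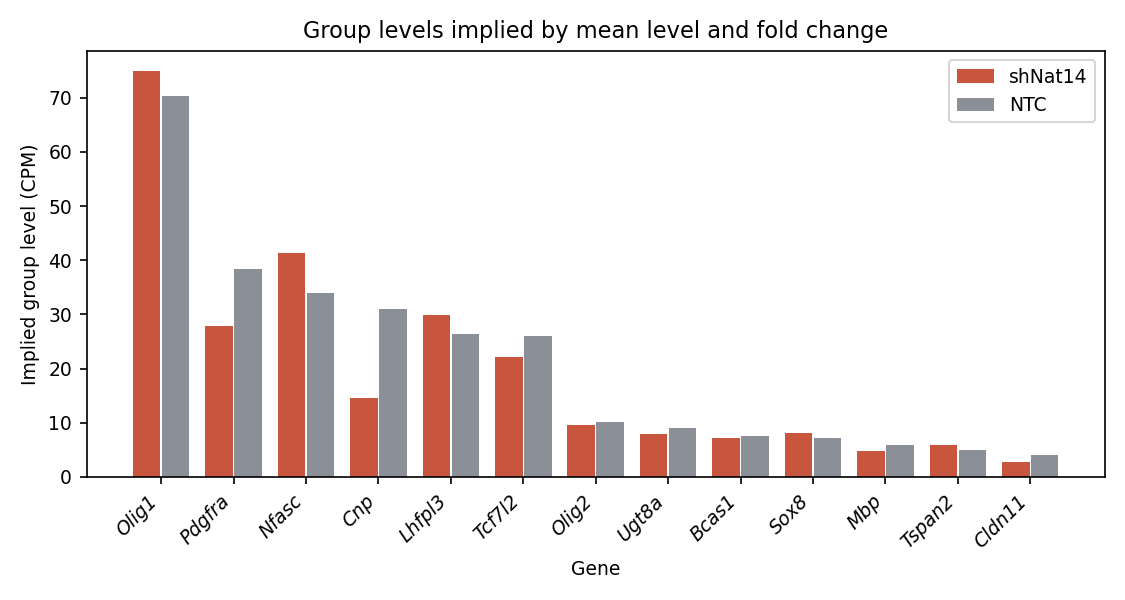
Group levels in CPM (vertical axis, from 0) of the 13 members whose mean level reached the table's median, computed from the mean level and fold change of the table, with the shNat14 bar left of the NTC bar; no error is available. The pair for Cnp, 14.6 and 31.0 CPM, is the most unequal, while Olig1, Nfasc, Lhfpl3, Sox8 and Tspan2 have the higher bar in shNat14.

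The structural proteins of myelin had fold changes on either side of 0, none of them past the unadjusted threshold. Mbp, myelin basic protein, which presses the cytoplasmic faces of the membrane together, was at -0.31 in the authors' deposited table (p = 0.578). The levels computed for Mbp were 4.81 CPM in shNat14 and 5.94 CPM in NTC. Mog, a glycoprotein of the outer myelin surface, had the highest fold change of any member, 0.65 at a mean of 1.33 log2 CPM in the authors' deposited table (p = 0.287). Mag, the adhesion molecule of the inner myelin layer next to the axon, stood at 0.07 (p = 0.971) in the authors' deposited table. Cldn11, the claudin of myelin tight junctions, was at -0.57 in the authors' deposited table (p = 0.36). Its computed levels were 2.78 CPM in shNat14 and 4.12 CPM in NTC. Thus Mbp and Cldn11 lay on the side of Cnp, Mog on the other, and Mag close to 0. Mog and Mag were both below the median level, Mag at a mean of 0.13 log2 CPM. These differences between members were not tested.

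Enzymes and membrane genes of early oligodendrocytes were likewise split. Ugt8a, which makes the myelin lipid galactosylceramide, stood at -0.19 (p = 0.678) in the authors' deposited table. Bcas1, a marker of newly myelinating cells, stood at -0.05 (p = 0.932) and Tspan2, a tetraspanin of early myelin, at 0.28 (p = 0.566) in the authors' deposited table. Nfasc, whose glial form builds the paranodal junction and whose neuronal form sits at nodes, was at 0.29 in the authors' deposited table (p = 0.396). The levels computed for it were 41.4 CPM in shNat14 and 33.9 CPM in NTC. Gpr37, a receptor of maturing oligodendrocytes, had -0.94 (p = 0.223), and Ermn, an actin-binding myelin protein, had -0.79 (p = 0.499) in the authors' deposited table, at mean levels of 1.01 and 0.12 log2 CPM. Gjc3, a connexin of oligodendrocytes, stood at -0.38 (p = 0.542) in the authors' deposited table.

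Opalin, Fa2h and Mobp were at or close to the lowest level of the table. Opalin, a protein of mature oligodendrocytes, sat at that lowest level with a fold change given as 0 in the authors' deposited table. Fa2h, which hydroxylates the fatty acids of galactolipids, was also at a fold change of 0, with a mean of -2.66 log2 CPM in the authors' deposited table. Mobp, a protein of compact myelin, had a mean of -2.75 log2 CPM and a fold change of 0.47 (p = 1) in the authors' deposited table. Checked against its markers, the sorted material held transcripts of precursor genes and of myelin genes, by mean levels taken over both groups together. Of the precursor genes, Olig1, Pdgfra and Lhfpl3 were above the median level, whereas Sox10 and Cspg4 had mean levels of 1.70 and 2.08 CPM. Of the myelin genes, Mbp was at 5.37, Mog at 2.51, and Mag and Ermn at 1.09 CPM each.

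Levels were also ordered per length, as mean CPM per kilobase of annotated exon (GENCODE M21, all isoforms joined), a rough scale that has no spread here. Olig1 was first with 33.6 CPM per kilobase, followed by Lhfpl3 with 8.76, Cnp with 6.27, Olig2 with 3.87 and Pdgfra with 3.30. Without values per library, neighbours in this order cannot be told apart. Sox10 reached 0.557 and Mbp 0.634 CPM per kilobase. Opalin, Fa2h and Mobp, near the lowest level, are not placed in this order.

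**Figure D3:**
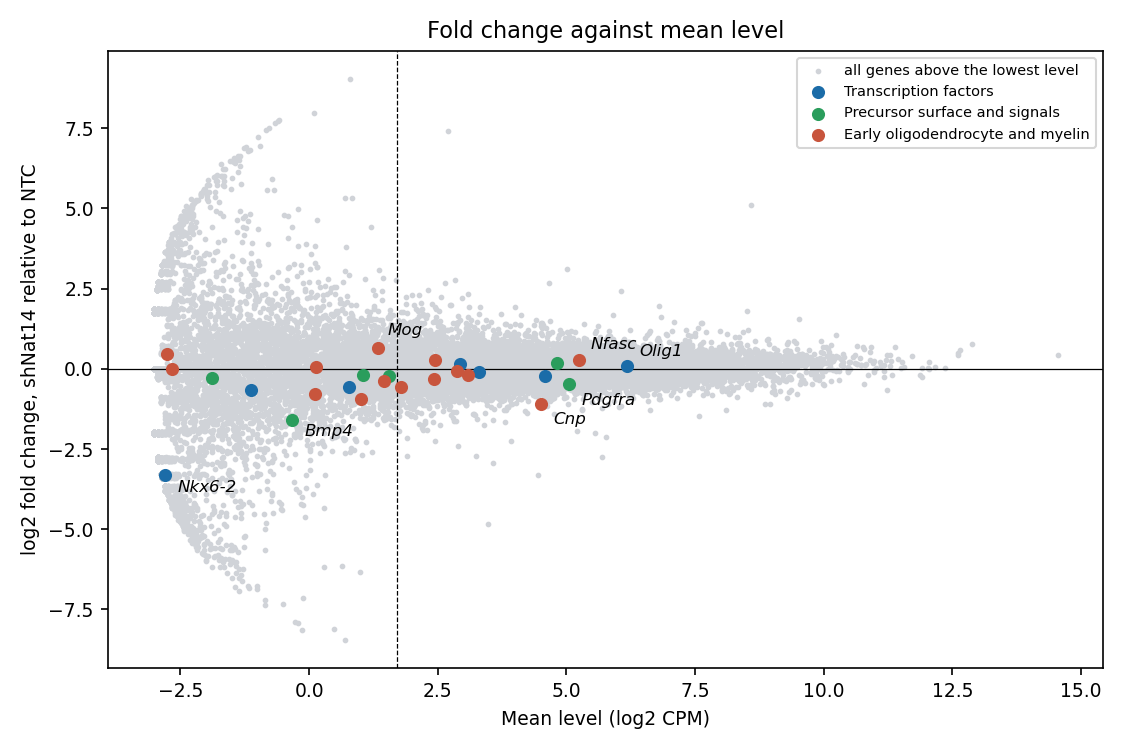
Log2 fold change of shNat14 relative to NTC (vertical axis) against mean level in log2 CPM (horizontal axis) for the 17400 genes above the lowest level (grey) and the 27 members among them (coloured by role); the dashed line is the median level, 1.71. The members lie within the grey cloud of their level, and Cnp sits toward its lower side.

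The scatter of all genes grew as the mean level fell. Between 4 and 6 log2 CPM, the range that holds Cnp, 90% of the 4196 genes had log2 fold changes from -0.55 to 0.64, and Cnp lay below that range. Of the 5 members of that range, Cnp was the sole one outside it. Between 0 and 2 log2 CPM the corresponding range over 2264 genes was -1.36 to 1.48, and all 9 members there lay inside it. Below 0 log2 CPM it was -4.29 to 3.64 over 4519 genes, which covers Bmp4 and Nkx6-2.

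Other genes of the lineage were taken from 4 lists with 111 entries, some of which neurons, radial glia or astrocytes also express. Across these and the lists of other cells, 5 genes stand in 2 lists. None of the 111 was called in the authors' deposited table, and 4 had an unadjusted p under 0.05. These were 3 lower and 1 higher, where 2.25% of all genes were lower and 2.79% higher. Their share of 3.60% is again near the background of 5.04%. Above the lowest level, 67.6% of 105 genes were negative, and their median log2 fold change was -0.17. The 24 further regulators held no gene at unadjusted p under 0.05, with the highest mean CPM for Sox11 at 0.07 (p = 0.797) and Id2, an inhibitor of differentiation, at -0.30 (p = 0.314) in the authors' deposited table. The 33 ligands, receptors and surface proteins also held none, and Ptprz1, a receptor phosphatase of precursors and radial glia, stood at -0.20 (p = 0.453) and the endothelin receptor Ednrb at 0.28 (p = 0.413) in the authors' deposited table.

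The 16 genes of committed precursors held 2 genes at unadjusted p under 0.05, in opposite directions. In the authors' deposited table Sirt2, a tubulin deacetylase abundant in myelin, stood at -0.90 (p = 0.000537, adjusted p = 0.145), 53.7% of the NTC level, and ranked 81st by p. Its computed levels were 54.7 CPM in shNat14 and 101.7 CPM in NTC. Sirt2os is named as the opposite strand transcript of Sirt2, and its overlap with Sirt2 was not measured here. Nfkbib, on the opposite strand, shares 42 exonic bases with Sirt2 and had a mean of 4.80 log2 CPM and a fold change of -0.49 (p = 0.121) by the authors' deposited table. Frmd4b, a FERM domain scaffold, was at 0.65 in the authors' deposited table (p = 0.00807, adjusted p = 0.604). The levels computed for Frmd4b were 321 CPM in shNat14 and 204 CPM in NTC. Mycl, listed under its older symbol Mycl1, had the second highest mean CPM of this list and was at -0.16 in the authors' deposited table (p = 0.541).

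Of 38 further myelin products, 27 were negative and 8 positive, and 2 had an unadjusted p under 0.05, Pllp and Cmtm5. Both were lower in shNat14, 5.26% of the list, where 2.25% of all genes were lower at that threshold. Pllp, plasmolipin of the myelin membrane, stood at -1.95 at a mean of 0.59 log2 CPM in the authors' deposited table (p = 0.00722, adjusted p = 0.563). Cmtm5, a small membrane protein of oligodendrocytes, stood at -1.30 at a mean of 1.76 log2 CPM in the authors' deposited table (p = 0.0142, adjusted p = 0.731). The genes with the highest mean CPM were Gpm6b, a proteolipid family member that neurons also make, at -0.05 (p = 0.831) and Tubb4a, listed under its older symbol Tubb4, at -0.55 (p = 0.234) in the authors' deposited table. At or above the median level 17 of 20 genes of this list were negative, with a median of -0.28. Of the 10969 genes of that level 46.4% were negative, with a median of 0.03. The shared sign of these genes was not tested, since the table holds no values per library.

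Lists of markers of other cells were read as well, although the sort for GFP after electroporation of cortical progenitors would be meant to remove cells of other origin, such as microglia. At unadjusted p under 0.05, 2.25% of all genes were lower and 2.79% higher in shNat14. Of 18 astrocyte markers 17 were negative, 7 of them at unadjusted p under 0.05. The summed computed level of these markers was 2291 CPM in shNat14 and 3338 CPM in NTC. Agt, angiotensinogen, was the sole gene called in any of these lists, lower at -6.33 with a mean of 0.98 log2 CPM in the authors' deposited table (p = 2.55e-09, adjusted p = 6.99e-06). Its computed shNat14 level is below the lowest level of the table, so this size is no bound either. Of 15 microglia markers 12 were negative, 6 at unadjusted p under 0.05, with sums of 84.2 CPM in shNat14 and 131.6 CPM in NTC. Only 8 of these 15 reached the median level, and below it fold changes scatter widely. C1qb had the smallest p of the list, at -1.62 in the authors' deposited table (p = 0.00169). Interneuron markers were negative in 10 of 15, 4 at unadjusted p under 0.05, and Dlx5 led them at -0.76 (p = 0.0134) in the authors' deposited table. The sums of this list were 790.5 CPM in shNat14 and 762.6 CPM in NTC. Without Sp8, the gene with the largest gap, they were 226 CPM in shNat14 and 313 CPM in NTC. For the 28 members the sums were 273 CPM in shNat14 and 295 CPM in NTC, and without Cnp they were 258.5 CPM in shNat14 and 264 CPM in NTC. None of the astrocyte, microglia and interneuron markers was at the lowest level of the table. The part of other cells in the values of Cnp, Sirt2 and the myelin products was not tested.

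Markers of radial glia and neurons were more evenly split in sign. Of 16 radial glia markers 8 were negative and none had an unadjusted p under 0.05, the smallest being that of Gli3, a Hedgehog pathway factor, at -0.52 (p = 0.172) in the authors' deposited table. Of 15 neuron markers 7 were negative and none had an unadjusted p under 0.05, with Stmn2, a microtubule regulator of growing axons, leading at 0.45 (p = 0.0906) in the authors' deposited table. Whether any of these lists differs from the members was not tested.

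**Figure D4:**
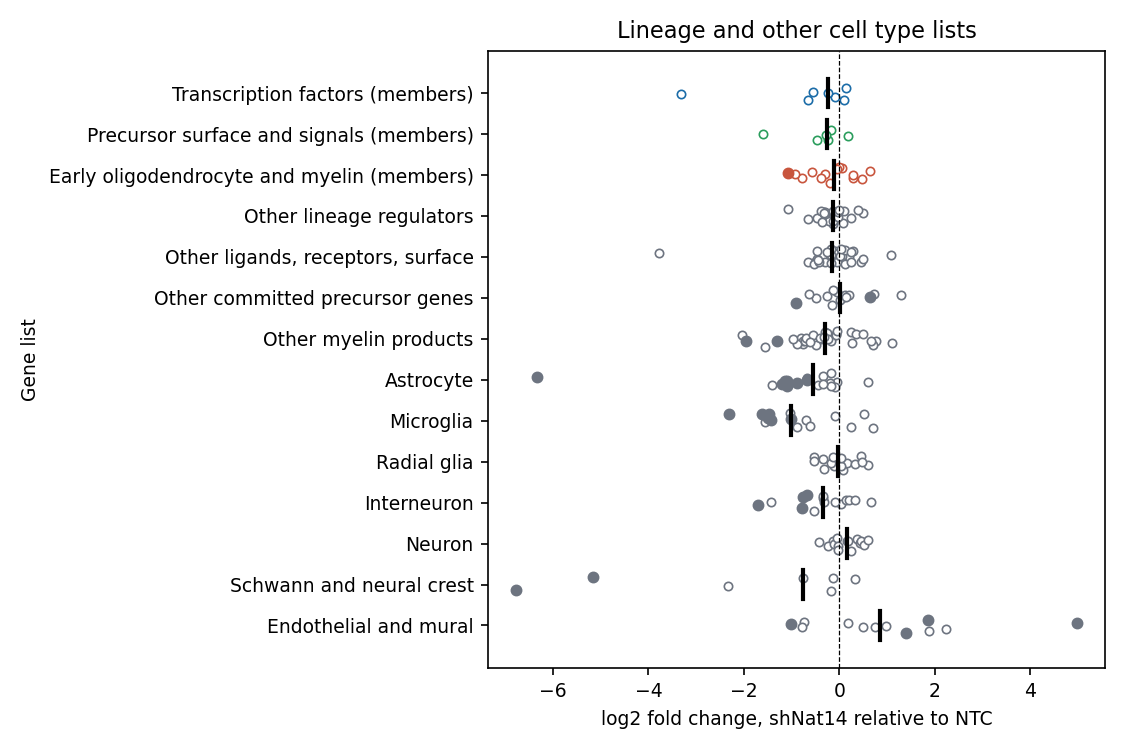
Log2 fold change of shNat14 relative to NTC (horizontal axis) for each gene above the lowest level in the 3 groups of members, 4 further lineage lists and 7 lists of other cells; filled points have an unadjusted p under 0.05 and the bar is the list's median. Cnp is the single filled point among the members, while the astrocyte and microglia lists hold 7 and 6 filled points, all on the negative side. Over all genes 2.25% were lower at that threshold.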

How the data were processed

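Per the file headers, the authors' table holds for each gene the fold change and the mean level, both deposited on a log2 scale. It also holds the authors' p-value and its adjusted form, a false discovery rate. The tools listed, without roles, in the submitters' processing notes are HTSeq 0.5.4p1, TopHat2 2.0.8, SAMtools 0.1.19 and DESeq, with the build hg19; hg19 is human and the symbols are mouse, so the build is unresolved and only promoter coordinates of the RefSeq table are given. No source used here states the filters, the normalization or the use of strand. Benjamini-Hochberg adjustment of the deposited p-values returned the deposited adjusted p-values to within 4.05e-05. Groups follow the sample titles.

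The authors' test was read as deposited, with calls at adjusted p under 0.05; no list test was run. Group levels were computed from mean CPM and fold change, taking the mean as the average of the groups, and are unreliable for low genes. Older symbols were matched through RefSeq. The members and lists were chosen with earlier results of these data known. All members in the table are named, and of the other lineage lists the genes at unadjusted p under 0.05 and the 2 with the highest level. Of the lists of other cells the gene with the smallest p is named. Mog was chosen for its upstream sequence, and Dnajc7 for its overlap, after their values were seen, as were Sp8 and Rgs5. The values of some genes in the lists are not reported here. The adjustment code was tested on simulated data. Python 3.11.15, pandas 2.3.3 and numpy 2.4.6 were used, with matplotlib 3.10.9 for figures.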

Additional observations from a re-analysis of the deposited data

How the results depend on the processing

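The count of 0 members called was the same at adjusted p under 0.10 and when the p-values were adjusted over genes above the lowest level or at or above the median level, where the adjusted p of Cnp was 0.636 and 0.715 and that of Sirt2 0.115 and 0.151. At unadjusted p under 0.01 the count was 0 members, and at 0.10 it was 2, Cnp and Bmp4. The median log2 fold change of members, -0.23, was -0.0921 at or above the median level and -0.0697 for the 6 members at or above 10 CPM, of which 3 were negative. It ranged from -0.31 to -0.21 with no filter, after centring, without Nkx6-2, without 8 members that other cells also express, or with Gm98 counted as Myrf, the last chosen after seeing the data. Centring shifts every gene alike by 0.03, less than the positive fold change of any member. The sums without 1 gene were chosen after seeing the data. No paired analysis was possible because single libraries are not in the comparison table, and fits that leave out a library were not run for the same reason.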

Other observations

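Schwann cells and neural crest share Sox10 with oligodendrocytes, and 10 of their markers were read beside the members. Of these, 3 were at the lowest level of the table, 6 had a negative fold change and 2 had an unadjusted p under 0.05. Those 2 were lower in shNat14, where 2.25% of all genes were lower at that threshold. Cdh19, a cadherin of Schwann cell precursors, had the smallest p of the list and stood at -6.77 with a mean of -1.01 log2 CPM in the authors' deposited table (p = 0.0107, adjusted p = 0.684). The size of a fitted fold change at that level is no bound.

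Endothelial and mural markers were mostly, but not all, positive. Of 12 genes 9 had a positive and 3 a negative fold change. An unadjusted p under 0.05 was given for 4 of them, 3 higher and 1 lower. Over all genes 2.79% were higher and 2.25% lower at that threshold. Only 5 of these 12 reached the median level, 3 positive and 2 negative, and below it fold changes scatter widely. The summed computed level of the 12 genes was 98.5 CPM in shNat14 and 56.5 CPM in NTC. Without Rgs5, a pericyte gene with the largest gap, it was 39.9 CPM in shNat14 and 34.4 CPM in NTC. Emcn, endomucin of the vessel wall, had the smallest p and stood at 4.98 with a mean of -0.21 log2 CPM in the authors' deposited table (p = 0.0137, adjusted p = 0.72). The computed NTC level of Emcn is below the lowest level of the table, so the size of this fold change is no bound.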
